A study of Mus musculus with 6 samples.

Results

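Reck, the 4 tissue inhibitors of metalloproteinases (Timp1, Timp2, Timp3 and Timp4) and 4 matrix metalloproteinases (Mmp2, Mmp3, Mmp9 and Mmp14) were followed in aortic smooth muscle of mice with and without a floxed miR-21 gene. They are 9 of the 22956 genes in the deposited table, found by gene symbol. Reck was picked because its level differed between the genotypes in an earlier look at these libraries and because it is a known target of miR-21, and the other genes because they are its protease targets or relatives. The knockout-against-WT values below therefore describe the genes and carry no p-value. All 9 passed the filter on low counts that left 16654 genes for testing.

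The 3 WT libraries carry the labelled genotype WT/mTmG/ Myh11ERT2 and the 3 knockout libraries miR-21fl/flmTmG/Myh11ERT2, a group also labelled miR21 -/-. Every animal was of strain C57B6, 30 weeks old and on a western diet for 20 weeks, so the diet is the same on both sides of the comparison. mTmG is a reporter that changes colour where Cre has cut, and Myh11ERT2 is an inducible Cre driven by a smooth muscle promoter, so only cells that have used that promoter can lose a floxed gene. The labels state neither tamoxifen dosing nor a sort of the cells, and they do not say whether replicates are separate animals. P-values on other genes therefore measure the spread between these samples, which may be technical. The question was which messages of this protease system differ when smooth muscle lacks miR-21 under the same diet.

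Matrix metalloproteinases are zinc enzymes that cut collagens, elastin and proteoglycans, and most are made as inactive proenzymes. TIMPs are small secreted proteins that plug the active site, and RECK is an inhibitor tethered to the cell surface. MMP14, itself in the cell membrane, activates proMMP2 with TIMP2 as the bridge, and MMP3 can activate proMMP9. In the arterial wall these enzymes act on the medial elastic layers and on the fibrous cap of plaques. A microRNA lowers messages whose 3′ untranslated region (UTR) pairs with its seed, bases 2 to 8.

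The sequences that tie these genes to the deleted microRNA are its mature strand and the matching stretches in their 3′ UTRs, printed 5′ to 3′ on the strand of the gene. Capitals mark the seed in the microRNA, which is from RefSeq (GRCm38.p6, chr11:86584120-86584141, minus strand), and the matched bases in the UTRs, which are from GENCODE M21 (GRCm38, the assembly of mm10).
mmu-miR-21a-5p: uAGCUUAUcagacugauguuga
Reck, chr4:43944389-43944418, plus strand: aatgttttacagtttgaaATAAGCTAttaa
Timp3, chr10:86348209-86348238, plus strand: gcggtttttgagctttcaATAAGCTAtagc
Timp2, chr11:118302336-118302364, minus strand: ctgcctgcgtcttaaaaaATAAGCTgtcc

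Reck and Timp3 each held the 8-base match ATAAGCTA, which pairs with the whole seed and ends in an A. The match in Reck started at base 1042 of a 3′ UTR of 1441 bases, and that in Timp3 at base 2325 of 3604. Timp2 held the 7-base match ATAAGCT at base 1353 of 2630. Timp3 also held a 6-base match further on, at base 2850. No match of 6 or more bases was found in the other 6 genes, whose 3′ UTRs ran from 101 bases in Timp1 to 4394 bases in Timp4. The 3 genes with a match of at least 7 bases compare with 1518 of the 13174 tested genes whose UTR was searched (11.5%), and the 8-base match was present in 285 (2.16%). The match in Reck was no independent find, since Reck was picked partly as a known target of miR-21. The median 3′ UTR was 1049 bases long, so these 3 genes have longer UTRs than most. A match is a description of the sequence and does not show that it is used. As a log2 ratio of knockout to WT, the fitted difference (log2 fold change) was 0.67 ± 0.08 (SE) for Reck, which was chosen on it, 0.16 ± 0.21 for Timp3 and -0.29 ± 0.24 for Timp2. The differences between these genes were not tested.

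Reck lies at chr4:43875530-43944806 (mm10, plus strand) and has 21 exons in its main transcript. Its level is given in CPM, counts brought to a common library size, here with TMM scaling. It was 141.3, 141.6 and 137.7 CPM in WT 1, 2 and 3, and 239.5, 204.3 and 223.1 CPM in knockout 1, 2 and 3. Every knockout library lay above every WT library, and the WT libraries lay close together. The means were 140 ± 2.19 and 222 ± 17.6 CPM (SD, n = 3 each), a 1.59-fold higher level in the knockout. Leaving out any 1 library kept the log2 fold change between 0.60 and 0.72.

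Reck was the single gene of the 9 whose groups did not overlap with the knockout above, and no gene of the 9 had all knockout libraries below. Over all tested genes these shares were 6.48% above and 5.6% below. With edgeR's quasi-likelihood test, adjusted by Benjamini-Hochberg at 0.05, 0 of the 9 were called and 0.0% of all genes. DESeq2's Wald test on the same counts called 1 of the 9, Reck, and 0.447% of all genes. Since Reck was chosen on this very contrast, nothing is read from these counts. The 9 genes split into 4 with a higher and 5 with a lower fitted level in the knockout, with a median log2 fold change of -0.23 against -0.00 over all tested genes.

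**Figure D1:**
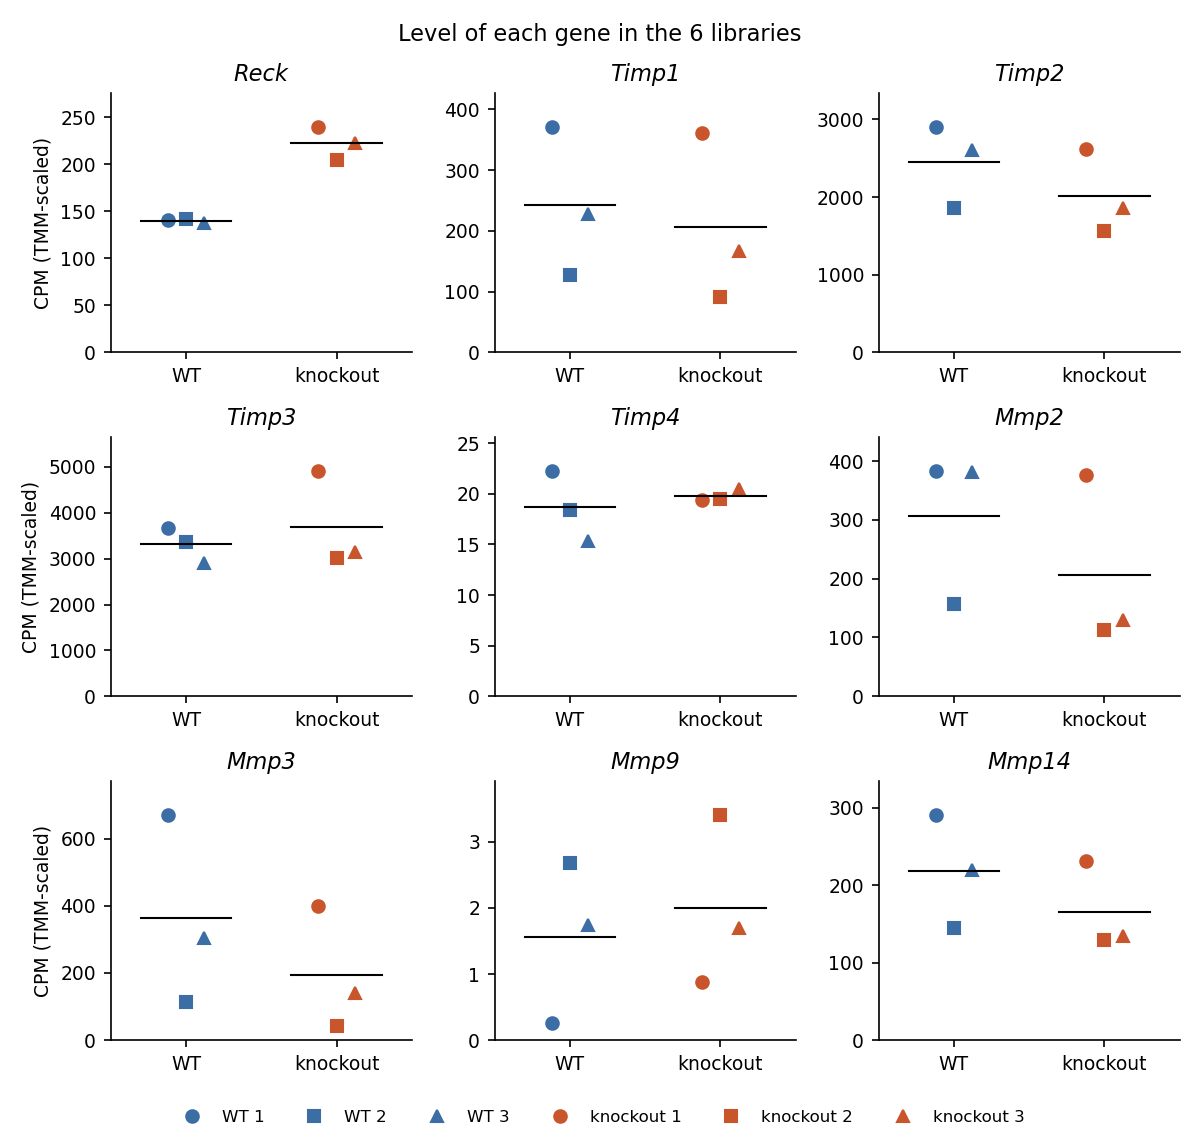
TMM-scaled CPM (vertical axis, from 0, a separate scale per gene) of the 9 genes in each library; symbols give the replicate number, colours the genotype, and black lines the group means. Reck separates by genotype, with WT at 137.7 to 141.6 CPM and knockout at 204.3 to 239.5 CPM, and in the 8 other panels the groups overlap.

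The TIMPs overlapped between genotypes throughout. Timp1 encodes a secreted inhibitor of most soluble metalloproteinases (chrX:20870166-20874735, plus strand). Its level was 371, 127 and 228 CPM across WT and 361, 91.5 and 167 CPM in knockout libraries. The highest library of each genotype was about as high as that of the other, and the spread within a genotype exceeded the gap between the means of 242 ± 122 and 206 ± 139 CPM. The log2 fold change of -0.23 ± 0.58 became 0.21 without WT 1, 0.12 without knockout 2 and -0.91 without knockout 1. In these fits, which ignore replicate numbers, its sign rests on single libraries. With replicate number as a block the value was -0.32 ± 0.10, but whether the numbers pair the samples cannot be decided here.

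Timp2, the inhibitor that also bridges MMP14 and proMMP2 (chr11:118301069-118355740, minus strand), was measured at 2898, 1860 and 2610 CPM in WT. In the knockout it was 2617, 1563 and 1861 CPM. Each genotype spanned most of the range of the other, with WT 1 highest and knockout 2 lowest. The means were 2456 ± 536 and 2013 ± 543 CPM, and leaving out a library kept the log2 fold change between -0.53 and -0.13.

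Timp3, which binds to the matrix and also blocks ADAM17 and aggrecanases (chr10:86300372-86349506, plus strand), was at 3670, 3354 and 2912 CPM across WT and 4910, 3024 and 3141 CPM in knockout libraries. Knockout 1 stood above the rest, and the other 2 knockout libraries fell inside the WT range. The means were 3312 ± 381 and 3692 ± 1057 CPM. Without knockout 1 the log2 fold change was -0.11 in place of 0.16. Timp4, a TIMP found mainly in heart and vessels (chr6:115241892-115252205, minus strand), was at 22.3, 18.4 and 15.3 CPM across WT and 19.4, 19.5 and 20.5 CPM in knockout libraries. The knockout libraries sat close together in the middle of the WT range, with a log2 fold change of 0.09 ± 0.13 that was -0.04 without WT 3.

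Timp1, Timp3 and Timp4 each lie inside a synapsin gene on the opposite strand, and whether counting used strand is not given in the sources used here. Timp3 shares 1733 exon bases with Syn3, Timp4 shares 90 with Syn2 and Timp1 shares 0 with Syn1. The synapsin genes were low throughout: Syn3 ranged from 2.10 to 4.16 CPM, Syn2 from 1.34 to 1.89 CPM and Syn1 from 3.31 to 5.04 CPM.

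The metalloproteinases varied more than Reck between libraries of 1 genotype. Mmp2, the gelatinase that MMP14 activates (chr8:92827291-92853420, plus strand), was at 383, 157 and 381 CPM across WT and 376, 112 and 130 CPM in knockout libraries. A WT library was low and a knockout library high, so the groups overlapped over most of their range. The means were 307 ± 130 and 206 ± 148 CPM, with a log2 fold change of -0.58 ± 0.57. That value was -1.35 without knockout 1 and between -0.89 and -0.28 when any other library was left out.

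Mmp3, stromelysin-1 (chr9:7445822-7455975, plus strand), had the widest range of the 9 genes, 15.8-fold from lowest to highest. It was at 671, 114.2 and 304 CPM across WT and 399, 42.4 and 141 CPM in knockout libraries. The order of the libraries interleaved the genotypes, and the means of 363 ± 283 and 194 ± 184 CPM had SDs close to their own size. The log2 fold change of -0.90 ± 0.92 became -1.99 without knockout 1 and -0.11 without WT 1. With replicate number as a block it was -1.09 ± 0.14. Estimated counts can share reads between near copies. Mmp10, the closest relative of Mmp3, was at 0.0687 to 0.791 CPM.

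Mmp14, the membrane-bound collagenase and activator of proMMP2 (chr14:54431612-54445364, plus strand), was at 291, 145 and 220 CPM across WT and 231, 129 and 135 CPM in knockout libraries. Its groups overlapped, with means of 219 ± 72.7 and 165 ± 57.3 CPM. The log2 fold change was -0.41 ± 0.32, -0.73 without knockout 1 and -0.15 without WT 1.

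Mmp9, the gelatinase of neutrophils and macrophages (chr2:164940780-164955850, plus strand), was near the bottom of the measured range. Its estimated counts were 10, 109 and 269 in WT libraries and 33, 149 and 122 in the knockout, or 0.264, 2.68 and 1.75 CPM against 0.885, 3.41 and 1.70 CPM. The lowest and the second highest library were both WT. The log2 fold change of 0.35 ± 0.79 was -0.27 without knockout 2, -0.13 without WT 1 and 0.91 without WT 2. Of the neutrophil markers, S100a8 was 0 in all 6 libraries, and the summed level of the 3 of 7 listed in the table was at most 0.136 CPM.

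**Figure D2:**
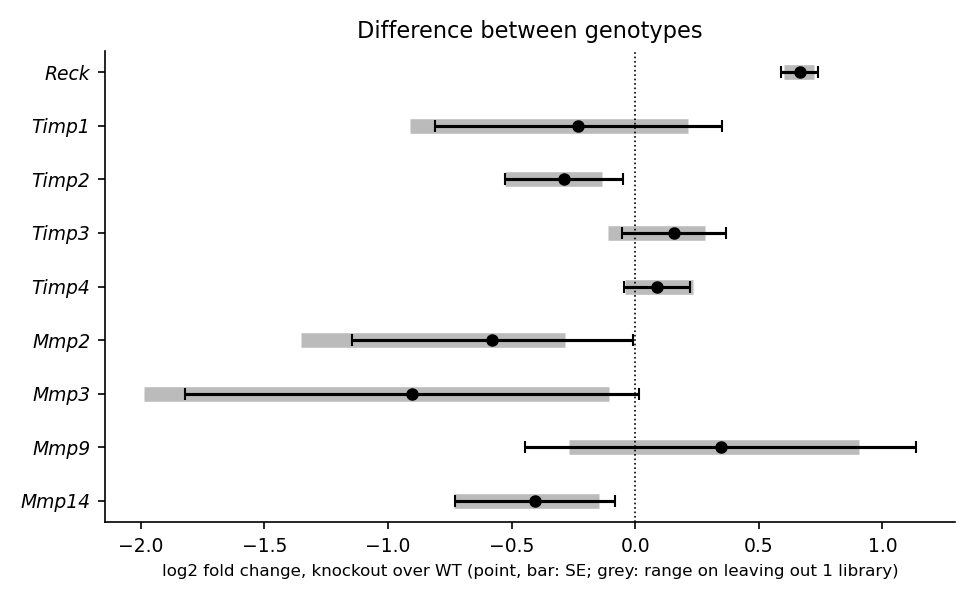
Log2 fold change of each gene, knockout over WT, from edgeR (points), with its standard error (black bars) and the range of the value when each library is left out in turn (grey bars); the dotted line marks no difference. Reck lies at 0.67 with a grey bar from 0.60 to 0.72, and the grey bars of Timp1, Timp3, Timp4 and Mmp9 cross 0.

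For 5 of the 9 genes the highest libraries were the same and came from both genotypes. Timp1, Timp2 and Mmp3 had 1 and the same order, from high to low WT 1, knockout 1, WT 3, knockout 3, WT 2 and knockout 2, an order found in 180 of the 16654 tested genes. For Mmp2 and Mmp14 the same 3 libraries, WT 1, WT 3 and knockout 1, were the highest, in another order. These 3 libraries were thus the highest for 5 of the 9 genes, and for 13.1% of all tested genes. The order was noticed in these data and is given as a description, with no test. Reck ran from 137.7 to 141.6 CPM in WT whether the library was high or low in Mmp3. Among knockout libraries it had the order of Mmp3, with 239.5, 223.1 and 204.3 CPM in knockout 1, 3 and 2. Mmp9 ran nearly the other way, with WT 1 and knockout 1 lowest, and Timp3 and Timp4 followed neither order, with WT 3 lowest in both.

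Markers of other cells moved with these libraries. Of 7 fibroblast markers, 5 (Pdgfra, Dcn, Lum, Col14a1 and Dpt) were also highest in WT 1, WT 3 and knockout 1. The other 2 were low and had higher means in the knockout, Pi16 with 2.55 ± 2.36 against 4.17 ± 0.453 CPM and Dpep1 with 0.691 ± 0.612 against 1.62 ± 0.605 CPM. The list, carried mostly by Lum and Dcn, summed to 6417, 2897 and 5781 CPM across WT and 5276, 1315 and 1820 CPM in knockout libraries. These sums put the libraries in the same order as Mmp2 did, and were lowest in knockout 2, which had the least Mmp2, Mmp3, Mmp14, Timp1 and Timp2. All 7 smooth muscle markers (Myh11, Acta2, Tagln, Cnn1, Smtn, Lmod1 and Mylk) were lowest in WT 1, WT 3 and knockout 1, as were 11.1% of all tested genes, and summed to 23851, 35864 and 29939 CPM across WT and 28687, 37332 and 35281 CPM in knockout libraries. The label of smooth muscle thus matched its markers, while fibroblast messages such as Lum, at 706 to 4108 CPM, were abundant too. Their part in the levels of the metalloproteinases and TIMPs was not tested. In samples of this kind, fewer cells of a type and less RNA per cell cannot be told apart.

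**Figure D3:**
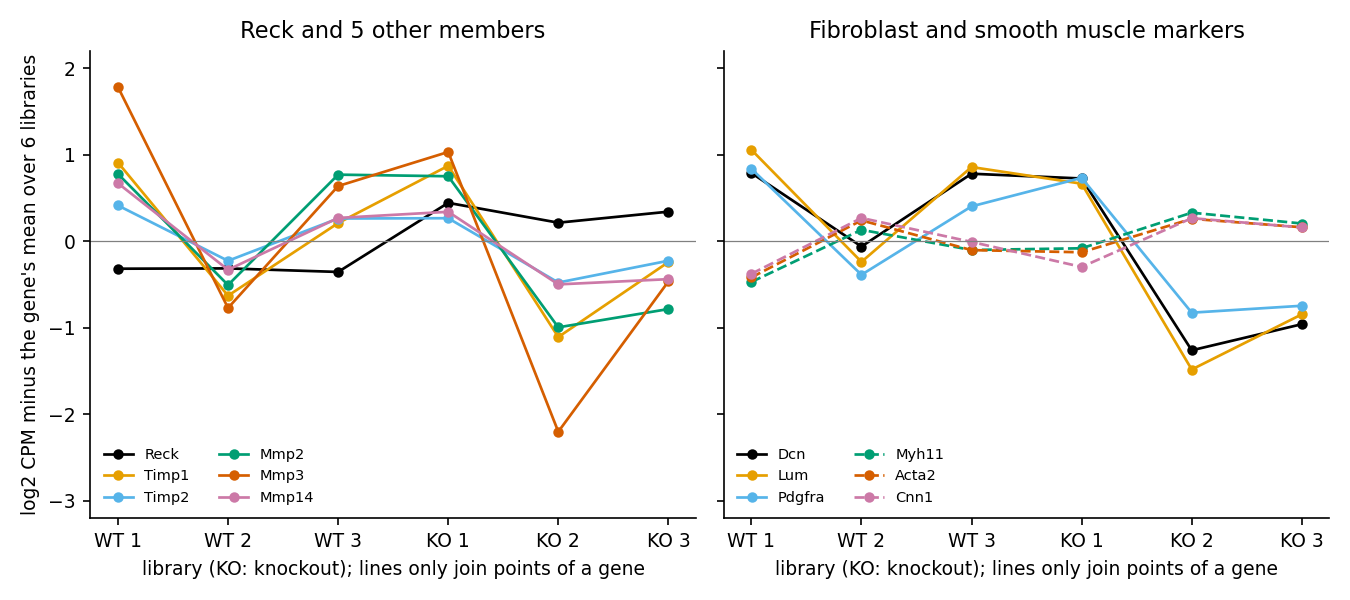
Log2 CPM of each gene minus its mean over the 6 libraries, by library, for Reck and 5 genes of the protease system (left) and for 3 fibroblast (solid) and 3 smooth muscle markers (dashed, right); lines only join the points of a gene. Timp1, Timp2, Mmp2, Mmp3 and Mmp14 are highest in WT 1, WT 3 and knockout 1, as are Dcn, Lum and Pdgfra, while Reck steps up between WT and knockout.

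The remaining marker lists were low. The summed CPM of 8 macrophage markers was 24.3, 5.42 and 8.10 in WT libraries and 26.9, 15.3 and 5.21 in the knockout. This sum was highest in knockout 1 and WT 1, the libraries with the least Mmp9, at 0.885 and 0.264 CPM. Its relation to Mmp9 was not tested. Endothelial markers summed to 60.0 to 69.8 CPM, mostly from Pecam1, the 2 adipocyte markers in the table to 37.4 to 53.2 CPM and lymphocyte markers to 0.0982 to 0.580 CPM. Cardiac muscle markers summed to 35.4 to 66.9 CPM. All knockout libraries were above all WT libraries for 2 of the 4 in the table, Actc1 and Ryr2, and for 6.48% of all tested genes. Ryr2 is also expressed in smooth muscle. The groups overlapped for Myh6, at 0.325 ± 0.213 CPM across WT and 0.413 ± 0.396 CPM in knockout libraries. They also overlapped for Tnnt2, at 18.7 ± 4.44 and 15.5 ± 11.6 CPM. Library totals ran from 37787465 to 154384307 estimated counts, with WT 3 the deepest and knockout 1 the shallowest. The targeted locus cannot be checked: Vmp1, whose last exon overlaps the microRNA gene, was at 69.7 ± 15.3 CPM across WT and 68.1 ± 8.12 CPM in knockout libraries, and counts over that gene check nothing about the microRNA, whose own level was not analysed here.

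Ratios between genes of 1 library are not affected by library scaling, and gene length cancels when they are compared between libraries. Reck over Mmp14 was 0.486, 0.975 and 0.626 in WT libraries and 1.04, 1.58 and 1.66 in the knockout. The groups did not overlap, and the mean log2 ratio was 1.06 higher in the knockout, between 0.84 and 1.34 when any 1 library was left out. Reck over Timp3 did not overlap either, at 0.0385 to 0.0473 in WT libraries and 0.0488 to 0.0710 in the knockout. Both ratios contain the value that chose Reck, so they add no independent support. Reck over Mmp2 was 0.369, 0.9003 and 0.361 in WT libraries and 0.637, 1.82 and 1.72 in the knockout, and here WT 2 lay above knockout 1. Reck over Mmp3 overlapped as well and spanned 0.210 to 4.82. Reck over Mmp9 spanned 52.9 to 535.7, and its mean log2 ratio, knockout minus WT, was -0.02, between -0.67 without WT 2 and 0.99 without WT 1.

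Of the ratios computed, the steadiest joined the bridge of proMMP2 activation to its protease. Timp2 over Mmp14 was 9.97, 12.8 and 11.9 in WT libraries and 11.3, 12.1 and 13.8 in the knockout, a 1.39-fold range over all 6 libraries, although Timp2 itself ranged 1.85-fold and Mmp14 2.25-fold. Timp2 over Mmp2 spanned 6.85 to 14.3 and Mmp2 over Mmp14 spanned 0.867 to 1.73. Timp3 over Mmp14 was 12.6, 23.1 and 13.2 in WT libraries and 21.2, 23.4 and 23.3 in the knockout, so WT 2 sat with the knockout libraries. Timp1 over Mmp3 ran from 0.552 in WT 1 to 2.16 in knockout 2, with the groups overlapping. Timp1 over Mmp9 spanned 26.8 to 1405, and its mean log2 ratio, knockout minus WT, was -1.01 with all libraries and 0.38 without WT 1.

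**Figure D4:**
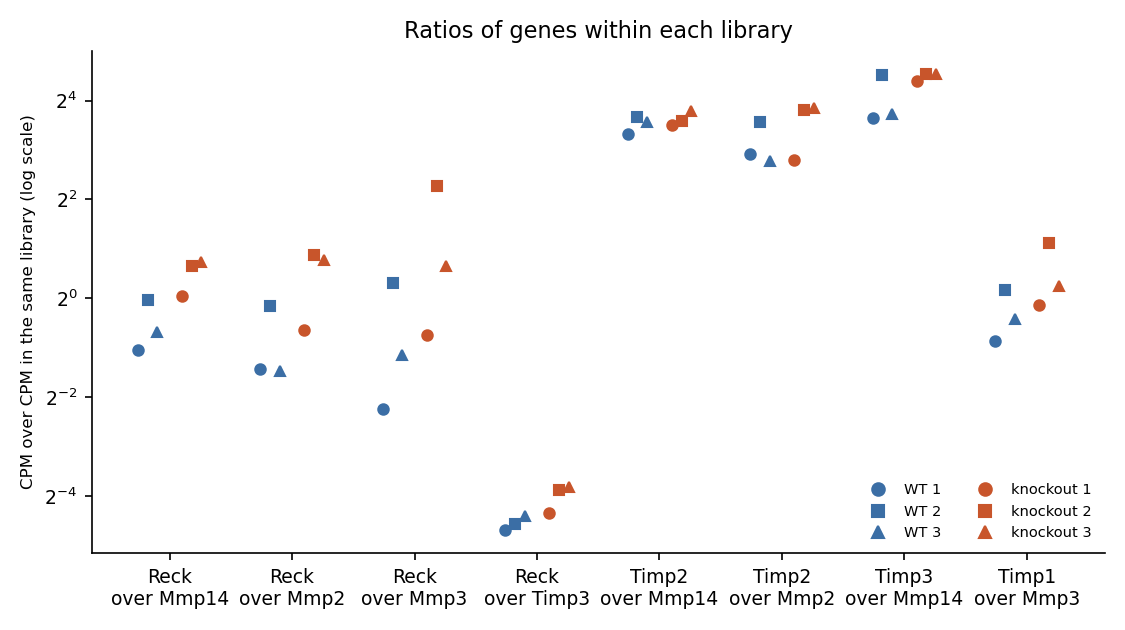
Ratio of CPM values within each library (vertical axis, log scale) for 8 pairs of genes; blue marks WT, orange marks knockout, and symbols give the replicate number. Reck over Mmp14 and Reck over Timp3 show no overlap between genotypes, and Timp2 over Mmp14 stays between 9.97 and 13.8 in all 6 libraries.

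Levels of different genes can be compared per length, as CPM per kilobase of merged exons. Timp2 was highest with a median over the 6 libraries of 574, followed by Timp3 with 399, Timp1 with 222 and Mmp3 with 123. Mmp2 had 79.1, Reck 36.2, Mmp14 30.7, Timp4 3.30 and Mmp9 0.486. The order held in all 6 libraries for Timp2 over Timp3, Timp3 over Timp1, Timp1 over Mmp3, Mmp14 over Timp4 and Timp4 over Mmp9. Mmp3 exceeded Mmp2 in 5 libraries, Mmp2 exceeded Reck in 4 and Reck exceeded Mmp14 in 4, so these neighbours are not separated beyond their spread. With the length of 1 representative transcript in place of merged exons, Timp3 with 688 passed Timp2 with 603, and Mmp14 with 70.4 passed Reck with 39.0.

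**Figure D5:**
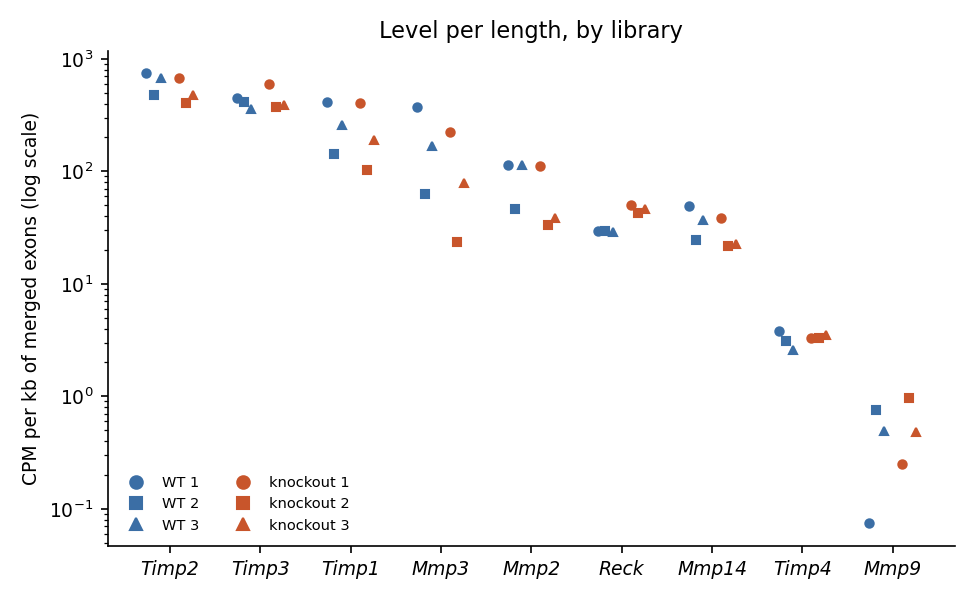
CPM per kilobase of merged exons (log scale) of the 9 genes in each library, ordered by their median; blue marks WT, orange marks knockout, and symbols give the replicate number. The inhibitors Timp2, Timp3 and Timp1 lie above the metalloproteinases by median, and Mmp9 lies lowest with a median of 0.486.

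On the same per-length scale the 4 TIMPs summed to more than the 4 metalloproteinases in every library. The TIMP sum was 3.02, 7.66 and 4.03 times the metalloproteinase sum in WT libraries and 4.53, 11.1 and 7.53 times in the knockout. WT 2 exceeded 2 of the 3 knockout libraries, so the groups overlapped. Timp2 and Timp3 together made up 73.9% to 87.9% of the TIMP sum. Reck itself held 1.86% ± 0.563 of the summed level of the 9 genes in WT libraries and 3.47% ± 0.979 in the knockout, with WT 2 at 2.47% above knockout 1 at 2.38%.

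Promoters from RefSeq (GRCm38.p6, 250 bases before to 50 after the start) were found for 7 of the 9 genes, all but Mmp2 and Mmp9. They were searched for the AP-1 motif TGANTCA and the ETS core GGAA, since AP-1 and ETS factors are known to drive metalloproteinase genes. On both strands, AP-1 occurred in 1 of 7, Mmp3, starting 46 bases before the start, against 7.81% of 32851 promoters. The ETS core occurred in 7 of 7, against 96.0% of all promoters, and on the gene's own strand in 5 of 7, against 79.7%. The AP-1 motif reads the same on both strands and does not overlap the ETS core. Whether the AP-1 motif bears on the level of Mmp3 was not tested. The 100 bases before the start of Mmp3, the 1 gene of the 7 with that motif, are printed with AP-1 in capitals.
Mmp3 promoter, chr9:7445722-7445821, plus strand: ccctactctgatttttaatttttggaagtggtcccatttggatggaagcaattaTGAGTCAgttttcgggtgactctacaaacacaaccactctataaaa

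The wider protease system was covered by 7 lists of related genes with 81 names, of which 74 were in the table and 71 were tested. These lists were chosen with earlier results of these data known, so counts and p-values on their genes are descriptions. None of the 71 passed edgeR's adjusted threshold, against 0.0% of all genes, and DESeq2 called 1, Hspg2, against 0.447%. At an unadjusted edgeR p under 0.05, 4 were higher in the knockout and 0 lower, against 3.95% and 2.01% of all tested genes. By fitted level 31 were higher and 40 lower, with a median log2 fold change of -0.02. Of the 71, 27 were highest in WT 1, WT 3 and knockout 1, against 13.1% of all tested genes. Those lists overlap in content with the fibroblast markers through Dcn.

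Among proteases, 1 of 11 other metalloproteinases had a higher and 10 a lower fitted level, and 0 passed an unadjusted p under 0.05. Their median log2 fold change was -0.11, so the signs include small differences. Of the 11, 4 were highest and 2 lowest in WT 1, WT 3 and knockout 1, against 13.1% and 11.1% of all tested genes. Mmp17, another membrane-type enzyme and the 1 with a higher fit, was at 271 ± 14.9 CPM across WT and 272 ± 39.0 CPM in knockout libraries. Mmp16 had a log2 fold change of -0.42 ± 0.20, and Mmp19 one of -0.99 ± 0.75, with its libraries in the same order as those of Mmp14. Of the 8 ADAM and ADAMTS enzymes that RECK or TIMP3 can block, 1 was higher and 7 lower, 0 of them at an unadjusted p under 0.05. Adamts1, an aggrecanase, had a log2 fold change of 0.19 ± 0.15, Adam17, the sheddase of TNF, -0.14 ± 0.11, and Adam10, a sheddase of Notch, -0.18 ± 0.17.

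The 11 tested activators and plasminogen-system genes split 6 to 5. Pcsk5, a furin-like convertase that cuts proproteins, was at 74.8, 84.7 and 84.0 CPM across WT and 120, 104 and 89.6 CPM in knockout libraries. Its groups did not overlap, with the knockout above, as in 6.48% of all tested genes. Its log2 fold change was 0.37 ± 0.11 (edgeR adjusted p = 0.786). Furin, which activates proMMP14, had a log2 fold change of 0.12 ± 0.09, Pcsk7 one of -0.08 ± 0.06 and Cd44, a docking site for MMP9 and MMP14, one of -0.32 ± 0.22. The 8 other protease inhibitors split 2 to 6, with 0 at an unadjusted p under 0.05. Serpine2, a serine protease inhibitor, had a log2 fold change of -0.16 ± 0.13, and the cathepsin inhibitor Cst3 had one of -0.27 ± 0.18.

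RECK has a further role, in which it works with the receptor Adgra2 to present Wnt7 ligands to Frizzled. Adgra2 was at 6.99, 7.29 and 6.38 CPM across WT and 8.96, 9.84 and 7.88 CPM in knockout libraries (log2 fold change 0.37 ± 0.12, edgeR adjusted p = 0.793). Its groups did not overlap, with the knockout above, as in 6.48% of all tested genes. Fzd4 had a log2 fold change of -0.00 ± 0.09. The clearance receptors Lrp1, which takes up proteases with their inhibitors, and Mrc2, which takes up collagen, had 0.01 ± 0.16 and -0.33 ± 0.31.

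Matrix substrates split 8 to 7. Hspg2, the basement membrane proteoglycan perlecan, was at 461, 495 and 450 CPM across WT and 618, 561 and 632 CPM in knockout libraries. Its log2 fold change was 0.37 ± 0.08, and its adjusted p was 0.735 in edgeR and 0.00719 in DESeq2. Lama4, a laminin chain of basement membranes, had a log2 fold change of 0.31 ± 0.16. Those of the interstitial matrix genes Col3a1 and Dcn were -0.39 ± 0.28 and -0.77 ± 0.57. The groups overlapped for Lama4, Col3a1 and Dcn. These genes were named for the smallest p in each direction, and the median log2 fold change of the list was 0.01. Of the 14 transcription factors known to switch on metalloproteinase genes, 11 had a higher and 3 a lower fitted level. Sp1 was at 30.0 ± 3.39 CPM across WT and 37.1 ± 3.44 CPM in knockout libraries, with overlapping groups (log2 fold change 0.31 ± 0.11, edgeR adjusted p = 0.8004). Fosl2, an AP-1 subunit, had a log2 fold change of 0.29 ± 0.15, Ets1 one of -0.02 ± 0.08 and Runx1 one of -0.49 ± 0.48.

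The genes most like Reck across the 6 libraries were found by Pearson's r of log2 CPM among 10520 genes with a mean log2 CPM of at least 2. They were Clpb, a mitochondrial chaperone (r = 0.996), Lifr, the receptor for leukemia inhibitory factor (0.993), Ralgapa2, a subunit of a Ral GTPase activator (0.990), Ndst1, an enzyme of heparan sulfate synthesis (0.986), and Zswim8, a ubiquitin ligase adaptor (0.986). Lifr was at 37.7 ± 0.140 CPM in WT libraries and 46.6 ± 1.24 CPM in knockout libraries, and Clpb at 35.5 ± 0.0860 and 37.3 ± 0.366 CPM (SD, n = 3 each). The likeness is in shape, since these genes differ less between genotypes than Reck. Clpb had a log2 fold change of 0.07 ± 0.05. Reck was chosen on its step between genotypes, so ranking by r to it picks genes with that step. Each of the named genes had all knockout libraries above all WT libraries, as did 6.48% of all tested genes. The likeness therefore adds no independent support. With 6 libraries in 2 genotypes, 133 genes reached an r of at least 0.9, and all points share the same libraries and depth. None of the 7 other genes compared was among them, and Mmp9 was below the level needed. Timp3 had an r of 0.41 with Reck and Timp4 one of 0.33, Timp1 had -0.07, and Timp2, Mmp2, Mmp3 and Mmp14 lay between -0.34 and -0.27.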

How the data were processed

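RNA-seq was measured in 6 libraries, 3 WT and 3 knockout, grouped by their GEO titles. Per the labels' protocols, frozen tissue was extracted in Trizol and libraries came from an Illumina TruSeq RNA kit. The deposited table holds gene-level estimated counts with no normalization by the authors, and 43.6% to 54.3% of a library's values are whole. Per the submitters' processing notes, STAR 2.6 and DESeq2 were used with mm10. For the counting tool and its strand setting, nothing is stated in the labels. Estimated counts may split reads between overlapping or near-identical genes.

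Counts were rounded and fitted with edgeR 4.0.16 in R 4.3.3 (filterByExpr, TMM, robust quasi-likelihood test, two-sided, Benjamini-Hochberg at 0.05 over 16654 genes). DESeq2 1.42.0 and limma 3.58.1 were alternatives, besides other scalings and filters, a replicate block and leaving out each library. DESeq2 gave no adjusted p for 330 genes, which stay out of its count. CPM values are TMM-scaled. The median SE of a log2 fold change was 0.136, which sets the precision. Libraries of 1 group were not duplicates of each other, with a chi-square per gene that averaged 30.2 to 109. Annotation was matched by position for 21548 genes and by symbol for 1347, with 61 unmatched; the 9 genes matched by position. Python 3.11.15 was used for summaries.

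The 9 genes, the 7 lists of related genes and the 8 lists of cell type markers were chosen with earlier results of these data known. Named from each list were genes past the threshold and up to 2 per direction with the smallest edgeR p among those with mean log2 CPM of at least 2. Of the genes that rule names, 1 is not reported here. The 5 genes most like Reck had the highest r at that level, predicted genes left out. Mmp10, Lum, Actc1, Ryr2, Il33, Moxd1 and the genes of overlapping loci were named after their values were seen.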

Additional observations from a re-analysis of the deposited data

How the results depend on the processing

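edgeR called 0 genes; the unadjusted p was under 0.05 for 658 higher and 335 lower genes. DESeq2 called 73, the replicate block 1 (Il33) and the fit without knockout 1 called 1 (Moxd1), so leaving out a library gave 0 to 1; neither is among the genes described. The other scalings and filters, limma-voom and an FDR of 0.1 called 0. Unadjusted, 414 to 798 genes were higher and 178 to 956 lower when a library was left out, with the extremes of the lower count without knockout 2 and without knockout 1 (581 without WT 2). They were 1128 and 779 with limma-voom and 538 and 415 with upper-quartile factors. With the replicate block they were 1189 and 918. Same-numbered libraries correlated at 0.381 for number 1 and 0.446 for number 2, in each case the best match of both libraries. For number 3 the value was -0.02, and those libraries correlated better with another number. With 3 libraries per group these correlations cannot decide whether the numbers pair the samples. In the replicate block, log2 fold changes (± SE) were 0.66 ± 0.06 for Reck, -0.32 ± 0.10 for Timp1, -0.30 ± 0.08 for Timp2, 0.13 ± 0.11 for Timp3, 0.11 ± 0.12 for Timp4, -0.69 ± 0.36 for Mmp2, -1.09 ± 0.14 for Mmp3, 0.51 ± 0.35 for Mmp9 and -0.40 ± 0.11 for Mmp14. These SEs are smaller than without the block for all 9 genes, most of all for Mmp3 (0.92 without it) and Timp1 (0.58). Timp1, Timp2, Mmp2, Mmp3 and Mmp14 were lower in each knockout library than in the WT library of the same number, and Reck was higher. Timp3, Timp4 and Mmp9 went both ways. All 117 alternative values of the 9 genes moved by less than 1 SD between replicates. That SD, in log2 units, was wide for some genes, at 1.46 for Mmp3, 1.27 for Mmp9 and 0.89 for Timp1. Leaving out 1 of 3 libraries can hardly move a value further than that, so this count says little about robustness. On leaving out a library, Timp1 ran from -0.91 to 0.21 and Mmp9 from -0.27 to 0.91, both changing sign. Related genes under an unadjusted p of 0.05 numbered 4 higher and 0 lower. They were 2 to 6 higher and 0 to 11 lower without a library (2 higher without knockout 2, 11 lower without knockout 1), and 9 and 5 in the replicate block. Scaling by transcript length moved shares of the summed level of the 9 genes from 37.6% to 31.2% for Timp2, from 28.9% to 39.3% for Timp3 and from 2.06% to 3.75% for Mmp14. Mmp9 rests on 10 to 269 counts a library, with 10 in WT 1 and 109 in WT 2, which have similar totals.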
